A study of Mus musculus with 30 samples.

Results

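Olfr720 and Olfr31 are the most proximal odorant receptor (OR) genes measured on mouse chromosome 14, and they lie far from the other OR genes of that chromosome. They were looked up by symbol in a table of 564 OR genes, of which they are 2. Olfr31 was chosen by its lower counts in ΔHxΔP mice than in wild-type mice, and Olfr720 as its neighbour, so that the ΔHxΔP values of both genes below are a description without a test. Counts came from NanoString probes, which count RNA molecules without amplification, in whole olfactory mucosa of mice 21 days old, with 1 μg of RNA from 1 mouse in each lane.

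There were 5 groups of 6 mice. The ΔHxΔP mice were double homozygous in the strain ΔP (Berry) x ΔH, on a mixed C57BL/6J x 129SvEv background (1 female and 5 males, cartridge MK29). They were read beside 6 wild-type mice of their companion strain (3 females and 3 males, MK29) and 6 wild-type mice of the companion strain of ΔH (4 females and 2 males, MK37), both on the same mixed background. The ΔOlfr7Δ mice were homozygous on the inbred 129SvEv background (2 females and 4 males, MK38), and their controls were wild-type 129S6/SvEvTac mice bought from a breeder (4 females and 2 males, MK38). No group carried the H or the P deletion alone, so that their parts cannot be told apart. On MK29 and MK38 the mutants took the last 6 lanes of the cartridge, so that lane and genotype cannot be told apart either. Nothing in the labels ties a mouse to a litter.

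Each mature olfactory sensory neuron expresses a single OR gene, and whole mucosa pools many such neurons. A lower count in the mucosa can therefore mean fewer neurons that chose the gene or less RNA in each of them, and bulk counts cannot tell these apart. The H element is an enhancer beside the OR cluster that holds Olfr1507 on chromosome 14, the P element is an enhancer in an OR cluster of chromosome 7, and the Olfr7 cluster lies on chromosome 9. Olfr31 (MOR274-1) and Olfr720 (MOR274-2) both encode G protein-coupled receptors of the OR family.

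In RefSeq (GRCm38.p6) the gene model of Olfr720 spans chr14:14175130-14176080 on the minus strand and that of Olfr31 spans chr14:14328113-14329066 on the plus strand. Both models hold the coding sequence alone, with coding lengths of 951 and 954 bases. The genes are 152 kb apart, with 2 other genes annotated between them. Olfr31 is 38.2 Mb from Olfr1507 and 35.6 Mb from Olfr722, the next OR gene of the table along the chromosome. The only OR gene annotated in that interval is the pseudogene Olfr721-ps1, which was not among the probes. RefSeq gives a MOR274 name to 3 genes, which are these 2 and the pseudogene.

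Since both genes belong to the same small subfamily, the deposited probe sequences show whether their counts were read from different letters. Each gene had a capture and a reporter probe of 50 bases, complementary to the transcript and printed here as deposited. Capitals mark the bases whose complement was found in the first 50 coding bases of the gene in RefSeq.
Olfr31 capture probe: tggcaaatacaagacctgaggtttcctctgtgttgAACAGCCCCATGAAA
Olfr31 reporter probe: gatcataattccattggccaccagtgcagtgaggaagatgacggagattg
Olfr720 capture probe: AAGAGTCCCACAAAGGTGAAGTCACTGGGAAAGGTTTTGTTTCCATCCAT
Olfr720 reporter probe: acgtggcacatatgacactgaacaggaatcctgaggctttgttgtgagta
The Olfr720 capture probe covers coding bases 1 to 50 (chr14:14176031-14176080), and the Olfr31 capture probe starts at coding base 36, with 15 bases inside the sequence available (chr14:14328148-14328162). The reporter targets lie beyond it and were not placed. The longest run of identical bases between a target of one gene and a target of the other was 7 bases. Against the probes of all 563 other OR genes in the table it was 11 bases for each gene. These runs compare probe targets with each other, which can lie at different places in the genes. Probes were not compared with whole transcripts of other genes, so the runs do not measure cross-reading.

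The first 50 coding bases of the genes, from the same RefSeq sequence and with differing bases in capitals, show how far the paralogs differ where the capture probe of Olfr720 binds.
Olfr31 coding start: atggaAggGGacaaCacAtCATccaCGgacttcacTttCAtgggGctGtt
Olfr720 coding start: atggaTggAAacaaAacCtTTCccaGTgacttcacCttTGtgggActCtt
They were identical at 35 of these positions and different at 15. The RefSeq assembly is of C57BL/6J, and the sequence of 129 mice at the probe sites was not compared.

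The OR counts of a lane added up to between 618163 and 1013430. Lanes were scaled on 6 positive controls and then on 5 genes of olfactory sensory neurons (Omp, the marker of mature neurons, and Adcy3, Ano2, Cnga2 and Gnal of odorant signalling), and values below are these scaled counts. All 5 genes were at least 109.5 times the background in every lane, and after scaling on the positive controls their geometric mean differed between groups by at most 0.18 on the log2 scale, between ΔOlfr7Δ and 129 wild-type mice (exact two-sided permutation test, p = 0.0628). The background of a lane, the mean plus 2 SD of its 8 negative controls, lay between 32.4 and 56.2. Olfr31 was at least 4.34 times and Olfr720 at least 10.1 times this background in every mouse. The deposited counts of Olfr31 ran from 220 to 1705, which leaves a counting error of 2.42% to 6.74%, and those of Olfr720 from 517 to 4052 (1.57% to 4.40%). These errors cover counting alone. The labels of the mutants were checked on 3 genes of the affected clusters. Olfr1507 was between 31.0 and 52.8 in ΔHxΔP mice and at least 2239 in every other mouse, and Olfr2, an OR gene of the P cluster, was between 40.4 and 65.9 and at least 1680. Olfr916 of the Olfr7 cluster was below the background in 6 of 6 ΔOlfr7Δ mice.

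The levels of both genes fell into a high range on the mixed background and a low range on the 129 background. Mean scaled counts of Olfr31 were, in falling order, 1509 ± 75.0 (SD, n = 6) in wild-type mice of MK29, 1288 ± 251 in those of MK37, 734 ± 401 in ΔHxΔP mice, 281 ± 47.4 in ΔOlfr7Δ mice and 262 ± 21.0 in 129 wild-type mice. Neighbours in this order overlapped for both mixed wild-type groups, for MK37 and ΔHxΔP, and for ΔOlfr7Δ and 129 wild type. No ΔHxΔP mouse was as low as the highest mouse of MK38, although the lowest, at 361, came close to the 352 of a ΔOlfr7Δ mouse. For Olfr720 the order was 3353 ± 393 in MK29, 3025 ± 738 in MK37, 2702 ± 393 in ΔHxΔP, 640 ± 142 in ΔOlfr7Δ and 619 ± 32.4 in 129 wild-type mice. Each neighbouring pair of Olfr720 groups overlapped except ΔHxΔP and ΔOlfr7Δ, which were separated by the range from 834 to 2299.

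**Figure D1:**
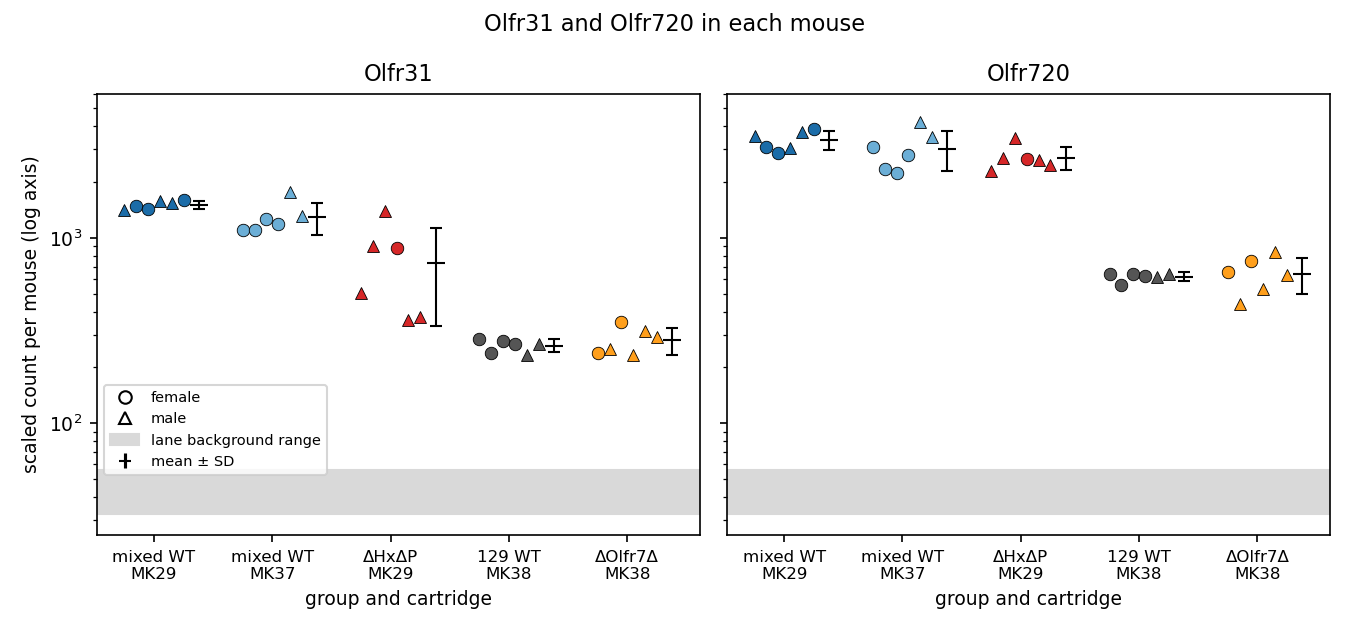
Scaled counts of Olfr31 (left) and Olfr720 (right) in each of the 30 mice on a log axis, by group and cartridge; circles are females, triangles males, black marks the mean ± SD of 6 mice and the grey band the range of lane backgrounds. The ΔHxΔP mice spread from 361 to 1393 for Olfr31 but stay between 2299 and 3447 for Olfr720.

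The first question was whether the fall of Olfr31 in ΔHxΔP mice was shared by all 6 mutants. It was not. In the 12 wild-type mice of the mixed background Olfr31 ran from 1101 to 1770, with a median of 1428. Mice 5 and 6 had the lowest counts, 361 and 373, which are 25.8% and 26.6% of the wild-type mean. Mouse 1 followed with 501 (35.8%). Mice 4 and 2 were intermediate, with 876 (62.7%) and 901 (64.4%). Mouse 3 stood at 1393 or 99.6% of the wild-type mean, inside the wild-type range. Thus 5 of 6 mutants were below every wild-type mouse, and the mutants differed among themselves by up to 3.86-fold, against 1.61-fold among the 12 wild-type mice.

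Because ΔHxΔP values chose Olfr31, this count of 5 is not a finding. As background, 10.8% of 557 OR genes had at least 5 of 6 ΔHxΔP mice below every wild-type mouse of the mixed background. By limma, which fits a linear model to each gene, 23.9% were called lower at a Benjamini-Hochberg adjusted p under 0.05. Those calls were 57 higher and 133 lower, but 123 higher and 103 lower when lanes were scaled by median of ratios. On the log2 scale the mean change of Olfr31 was -1.09. Leaving out 1 mouse at a time moved it between -1.31 and -0.92, with the largest change when mouse 3 was absent. Against the wild-type mice of MK29 alone it was -1.22 and against those of MK37 alone -0.97. Compared with the MK29 mice alone, whose lowest value was 1420, all 6 mutants were below every wild-type mouse. The share of OR genes with this separation from the MK29 mice was not counted, so this is no finding either. Against the MK29 mice alone, limma called 57 of 557 OR genes higher and 94 lower.

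Olfr720 did not share this pattern. Its counts in ΔHxΔP mice 1 to 6 were 2299, 2697, 3447, 2654, 2637 and 2480, and those of the 12 wild-type mice ran from 2246 to 4207, with a median of 3082. None of the 6 mutants was below the lowest wild-type mouse, and the mean log2 change was -0.23. Mouse 3 was also the highest mutant for Olfr720, at 108% of the wild-type mean, whereas the other 5 lay between 72.1% and 84.5%. Against the wild-type mice of MK29 alone, whose lowest count was 2877, 5 of 6 mutants were below. For this too the share of all OR genes was not counted.

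The mutants differed in Olfr31 far more than in most OR genes. The SD of log2 counts in ΔHxΔP mice was 0.79 for Olfr31 and 0.20 for Olfr720, while the median over 549 OR genes was 0.18. Among these genes 4 had a larger SD than Olfr31, namely Olfr893, Olfr539, Olfr916 and Olfr421, all of them picked out after the values were known. In MK29 wild-type mice, the companion strain, Olfr31 was instead among the steadiest genes. Its SD there was 0.07, and 516 of 549 genes had a larger one. This did not hold in the other wild-type mice of the mixed background. On MK37 its SD was 0.26, above the median of 0.12, and only 30 genes had a larger one. In ΔOlfr7Δ mice it was 0.24, with 76 genes above it, and in 129 wild-type mice 0.12, with 229 above it.

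Other measurements of the ΔHxΔP lanes are given here beside this spread, and their part in it was not tested. The single female, mouse 4, was in the middle of the range for Olfr31. Mouse 3 had 802917 OR counts in all, and the other mutants had from 679827 to 836628. Its Olfr1507 and Olfr2 counts, 42.8 and 45.5, were near its background of 36.6 as in the other mutants. Over the other 24 OR genes of chromosome 14, the median log2 difference from mixed wild type was -0.62, -1.07, -0.96, -0.84, -0.68 and -0.66 in mice 1 to 6. Over all OR genes the median was -0.04, -0.14, -0.17, -0.14, 0.05 and 0.11 in the same mice. The lanes thus also differed over all genes, and the chromosome 14 values are not corrected for this. At Olfr722, the nearest OR gene of the table, the differences were -0.37, -0.57, -0.67, -0.37, -0.16 and -0.16, with the same limit.

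The ratio of the raw counts of the 2 genes within a lane needs no scaling. Outside ΔHxΔP it was 0.440 ± 0.0557 (SD, n = 24) and lay between 0.359 and 0.570. In ΔHxΔP mice it was 0.218, 0.334, 0.404, 0.330, 0.137 and 0.150 for mice 1 to 6. Mouse 3 was within the range of the other groups, mice 2 and 4 were just below it, and mice 1, 5 and 6 were clearly below it. In mouse 5 the deposited count was 373 for Olfr31 and 2723 for Olfr720, so that any reading of Olfr720 RNA by the Olfr31 probes was at most 13.7% of the Olfr720 count in that mouse.

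**Figure D2:**
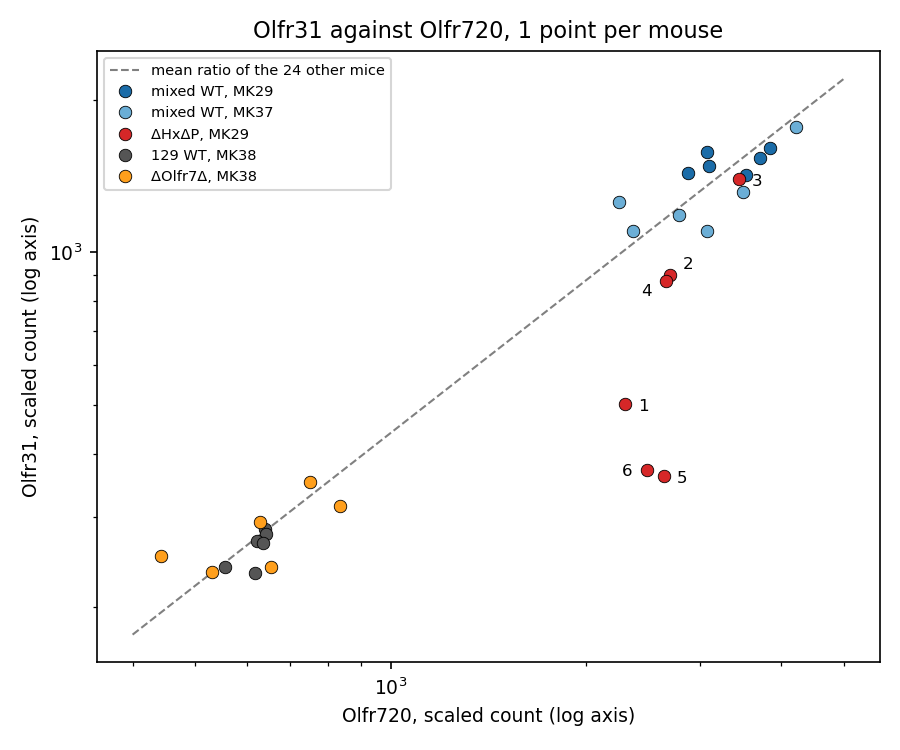
Scaled counts of Olfr31 against Olfr720 on log axes, 1 point per mouse, with the 6 ΔHxΔP mice numbered and a dashed line at the mean ratio (0.440) of the 24 other mice. All 6 ΔHxΔP mice lie below the line. Mouse 3 is among the mixed wild-type mice, and the other 5 are farther below the line at Olfr720 counts inside the mixed wild-type range.

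The second question was whether a deletion on another chromosome affected the genes. In ΔOlfr7Δ mice neither gene passed the test against 129 wild-type mice. Olfr31 ran from 234 to 352 (median 273) in the mutants and from 233 to 285 (median 268) in wild-type mice. The groups overlapped, with 3 of 6 mutants above the highest wild-type mouse and none below the lowest. The log2 difference was 0.09 (95% interval -0.13 to 0.30, adjusted p = 0.540 by limma), which corresponds to a fold change between 0.917 and 1.23. Olfr720 ran from 442 to 834 (median 641) against 555 to 642 (median 629), and mutants lay on either side of the wild-type range, 2 below and 3 above. Its log2 difference was 0.02 (95% interval -0.20 to 0.24, adjusted p = 0.907 by limma). By comparison, 35.5% of 552 OR genes were called in this comparison. That share includes genes of the Olfr7 cluster, which the mutants lack. Of the genes tested, 37 fell by more than 1 on the log2 scale.

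Of the genes called, 129 were higher and 67 lower in ΔOlfr7Δ mice, but 283 higher and 41 lower when the positive controls alone set the scale, which moved the median log2 difference of all genes from 0.06 to 0.24. The sign of the Olfr720 difference turned with TMM scaling (-0.02) and with scaling by the median of ratios (-0.03), and neither value passed the test. Of the other 24 OR genes of chromosome 14, 8 were higher in ΔOlfr7Δ mice and none was lower, with a median log2 difference of 0.12 beside 0.06 over all genes tested. Their range was -0.14 for Olfr221 to 0.56 for Olfr746. The spread of Olfr720 in ΔOlfr7Δ mice (SD 0.33 on the log2 scale) was above the median of all genes (0.14), with 18 of 549 genes above it, while in 129 wild-type mice it was 0.08. Whether the deletions differ in their effect on Olfr31 was not tested, since the ΔHxΔP values chose the gene.

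The third question was how the genes differ between backgrounds. Both were lower in 129 wild-type mice than in wild-type mice of the mixed background, by about the same factor. Olfr31 ran from 233 to 285 in the 6 mice of the 129 background and from 1101 to 1770 in the 12 mixed mice, without overlap. The log2 difference was -2.40 (95% interval -2.56 to -2.24, adjusted p = 1.33e-18 by limma), so that the mixed mice had 5.28 times the 129 level. Olfr720 ran from 555 to 642 against 2246 to 4207, again without overlap. Its log2 difference was -2.34 (95% interval -2.54 to -2.14, adjusted p = 1.07e-16 by limma), a factor of 5.07. These calls were made under every setting tried. With the background subtracted, the log2 differences were larger and less alike, -2.63 for Olfr31 and -2.43 for Olfr720. In this comparison 39.7% of 549 OR genes were called lower in 129 mice, and in 24.8% every 129 mouse was below every mixed mouse, so that a difference as such is common. Its size was not, since only 5 genes fell by more than 2 on the log2 scale. They were Olfr31 with the lowest value of the 549, Olfr552 on chromosome 7 (-2.36), Olfr720, Olfr1180 on chromosome 2 (-2.23) and Olfr916 on chromosome 9 (-2.02), the 3 that are no members being named after their values were seen.

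This comparison shares its mixed mice with the ΔHxΔP comparison that chose Olfr31. The 129 mice were read on another cartridge (MK38) than the mixed mice, so that background and cartridge cannot be told apart. In 129 wild-type mice the coefficient of variation of Olfr31, 8.02%, was little more than the counting error of its counts (5.72% to 6.74%).

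The large difference was not a feature of chromosome 14 as a whole. Of its other 24 OR genes, 11 were higher and 11 lower in 129 mice, with a median log2 difference of -0.05 beside 0.00 over all genes tested. The lowest was Olfr740 (-1.95) and the highest Olfr736 (1.62). Olfr722 had a difference of -0.61 (adjusted p = 2.33e-10 by limma) and Olfr1507, the OR gene beside the H element, one of -1.32 (adjusted p = 1.08e-10 by limma).

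**Figure D3:**
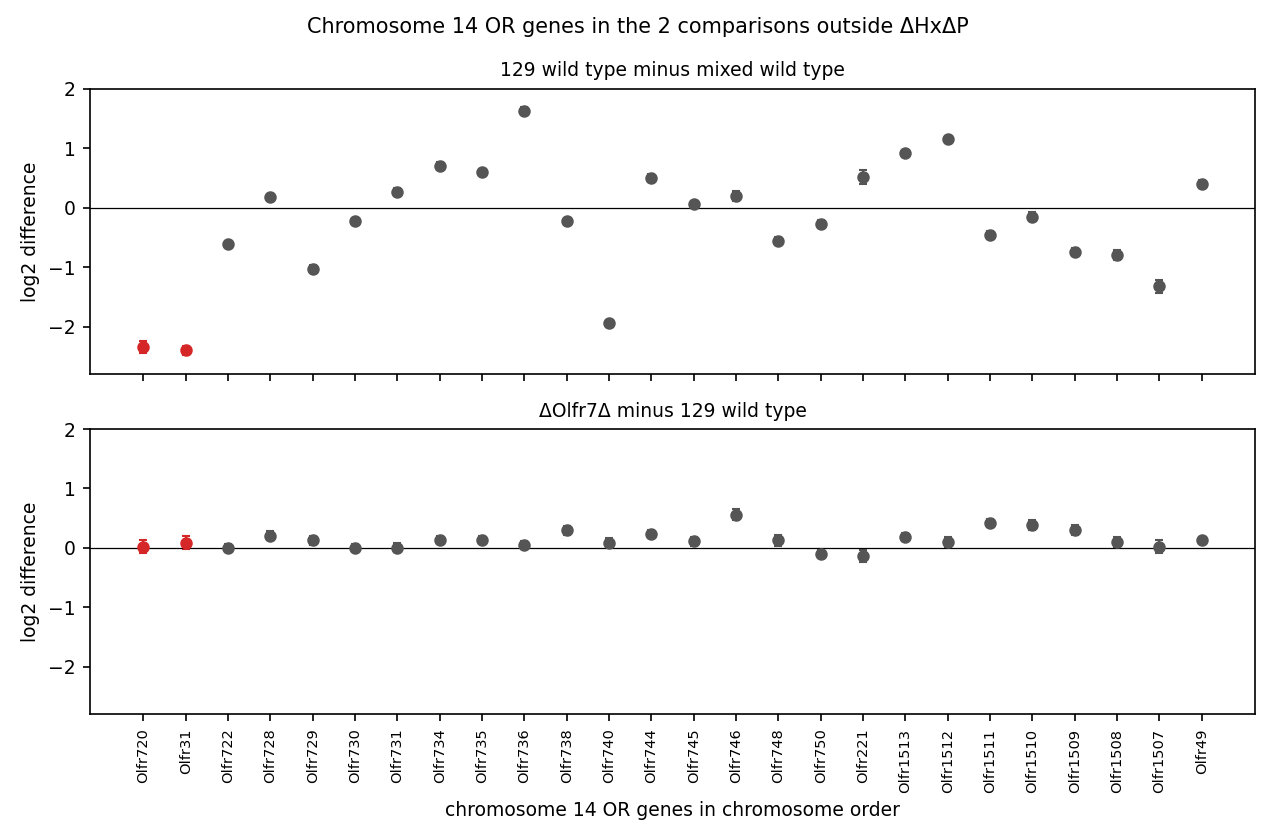
Log2 difference (point) and its standard error (bar) of the 26 OR genes of chromosome 14 in the order they take along the chromosome, for 129 wild type minus mixed wild type (top) and ΔOlfr7Δ minus 129 wild type (bottom); Olfr720 and Olfr31 are in red. At the top they lie at -2.34 and -2.40 and below at 0.02 and 0.09.

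The ΔHxΔP mice, on the mixed background, had a level of Olfr720 between 3.72 and 5.57 times the mean of the 129 wild-type mice. For Olfr31 this multiple was 1.91, 3.44, 5.32, 3.35, 1.38 and 1.42 in mice 1 to 6. The lowest mutants thus approached the 129 level in Olfr31 and not in Olfr720.

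The ratio of Olfr31 to Olfr720 did not differ detectably between backgrounds. It was 0.423 ± 0.0237 (SD, n = 6) in 129 wild-type mice, 0.448 ± 0.0740 in ΔOlfr7Δ mice, 0.454 ± 0.0487 in wild-type mice of MK29 and 0.435 ± 0.0720 in those of MK37. The differences in the mean log2 ratio were -0.06 for 129 against mixed wild type, 0.07 for ΔOlfr7Δ against 129 wild type and 0.07 for MK29 against MK37 (exact two-sided permutation tests, p = 0.473, 0.561 and 0.535, and 0.561 for each after adjustment over these 3). In ΔHxΔP mice the ratio was 0.262 ± 0.110, given without a test.

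**Figure D4:**
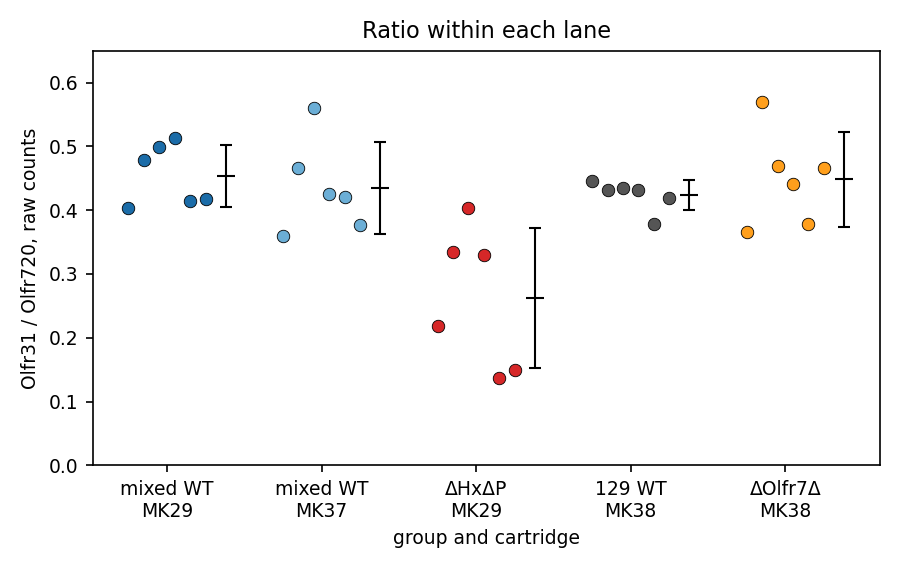
Ratio of the raw counts of Olfr31 and Olfr720 in each lane by group and cartridge, with the mean ± SD of 6 mice in black. The 24 mice outside ΔHxΔP lie between 0.359 and 0.570, and 5 of 6 ΔHxΔP mice lie below that range.

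The wild-type groups of the mixed background differed less. The 6 mice of MK29 had Olfr31 counts from 1420 to 1604 with a median of 1508. On MK37 the counts went from 1101 to 1770 with a median of 1220. The MK29 values lay inside the MK37 range, whose upper end was mouse 5, at 1770, with the other 5 at or below 1313. The log2 difference was 0.25 (95% interval 0.04 to 0.45) and missed the threshold (adjusted p = 0.0508 by limma). It passed with TMM scaling (0.34, adjusted p = 0.0121), with scaling by the median of ratios (0.36, adjusted p = 0.0116), and without mouse 5 of MK37 (0.34, adjusted p = 8.06e-04). It was weaker when the positive controls alone set the scale (0.16, adjusted p = 0.273 by limma). With all 30 lanes in 1 fit the adjusted p by limma was 0.350. Without mouse 1 or mouse 2 of MK37 the difference was 0.21 (adjusted p = 0.110 and 0.111 by limma). Olfr720 ran from 2877 to 3847 and from 2246 to 4207, with a log2 difference of 0.17 (95% interval -0.10 to 0.44, adjusted p = 0.293 by limma). In this comparison 40% of 557 OR genes were called, 60 higher and 163 lower in MK29 mice, or 114 higher and 108 lower with TMM scaling. Colony and cartridge cannot be told apart here. Of the other 24 OR genes of chromosome 14, 5 were higher and 6 lower, with a median log2 difference of -0.05 beside -0.10 over all genes tested.

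Neither gene differed detectably between males and females in the 24 mice outside ΔHxΔP, a set of mice chosen after seeing the data, with the group as a term in the model. The log2 difference, males minus females, was 0.05 for Olfr31 (95% interval -0.11 to 0.20, adjusted p = 0.873 by limma) and 0.11 for Olfr720 (95% interval -0.09 to 0.30, adjusted p = 0.710 by limma). Of 549 OR genes 0% were called by limma, and 52 had an unadjusted p under 0.05. Over all 30 mice, where 0% were called as well (26 at an unadjusted p under 0.05), the differences of -0.03 for Olfr31 and 0.09 for Olfr720 are a description, and the sign for Olfr31 also turned there when the positive controls alone set the scale (0.04).

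Within groups, mice with more Olfr31 had more Olfr720. In the 24 mice outside ΔHxΔP, after the group means were removed, Pearson's r of the log2 counts was 0.69 (permutation within groups, p = 0.00435) and Spearman's rho 0.59 (p = 0.00997). Without the 2 mice farthest from the median of Olfr720, r was 0.58 (permutation test, p = 0.0173). In the single groups r was 0.41 in wild-type mice of MK29, 0.74 in those of MK37, 0.71 in both groups of the 129 background, and none of the 4 passed alone with 6 mice (exact permutation tests, adjusted p between 0.136 and 0.382). As a description, r was 0.76 in ΔHxΔP mice and 0.52 over all 30 mice. The ΔHxΔP mice held 81.6% of the within-group sum of squares of Olfr31 and 12.9% of that of Olfr720. Both genes of a mouse share its lane and its scaling.

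The OR genes most alike in their deviations between mice were found over the 548 other genes with counts in all lanes, as a description. For Olfr720 they were Olfr281 (r = 0.74), Olfr315 (0.73), Olfr1180 (0.70), Olfr124 (0.68) and Olfr1179 (0.65), none of them on chromosome 14. Without the ΔHxΔP mice these coefficients were between 0.70 and 0.84. For Olfr31 they were Olfr902 (r = 0.65), Olfr893 (0.60), Olfr357 (0.56), Olfr414 (0.55) and Olfr916 (0.54), and without the ΔHxΔP mice they were between -0.23 and 0.06. The likeness of these 5 genes to Olfr31 thus rested on the ΔHxΔP mice. Among them Olfr902, Olfr893 and Olfr916 are also deleted in ΔOlfr7Δ mice, so that their values there are residual signal. Over all 30 mice Olfr720 stood 8th among the genes most like Olfr31, and Olfr31 was 13th among those most like Olfr720. The r of the pair was 0.52 there and 0.69 without the ΔHxΔP mice, for which ranks were not computed.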

How the data were processed

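The authors deposited raw NanoString counts, in a table whose numbered column headings are also listed in its header lines; for that reason the unit was recorded here as other than plain counts, and no count model was run. The filled cells are whole numbers, and empty cells mark probes without a reading. The counts were neither scaled nor background-subtracted. Of 564 OR genes, 549 have counts in all 30 lanes. Lanes were scaled on the geometric mean of 6 positive controls, then on that of 5 reference genes, over all 30 lanes together. log2(scaled count + 1) was fitted with limma 3.58.1 (R 4.3.3) with a mean-variance trend, for OR genes whose median in wild-type lanes reached 100 counts after background subtraction, two-sided, with Benjamini-Hochberg adjustment over all genes tested. This fit was first tested on simulated data with known changes. Ratios and correlations were tested by permutation in Python 3.11.15 with numpy 2.4.6 (924 or 18564 divisions of the mice, or 100000 permutations).

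Groups, sex and cartridge came from the sample labels. Mice were numbered in the order of their records, and no number pairs mice between groups. Nothing in the labels gives litters, so the tests treated the mice as independent. The p-values set differences against the spread between these mice, and would be too small if mice of a group shared litters. The members, the list of 24 other chromosome 14 OR genes (from the study's OR table, 7 of them marked as the H cluster) and the tests were chosen with earlier results of these data known. The genes named beside the members were the 5 with the highest r to each, Olfr1507, Olfr722 and the reference genes, and others as said in the text. Alternatives were other scalings, background subtraction, a pseudocount of 10, no filter, all lanes in 1 fit, sex as a covariate, tTREAT, the test of the study against a fold change, set at 1.3 and leaving out each mouse. Gene positions and coding starts came from RefSeq tables of GRCm38.p6, in which both symbols were found.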

Additional observations from a re-analysis of the deposited data

Results flagged for a closer look

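In 3 of 15 sets of 6 mice (each gene and the ratio in each group) 1 mouse stood apart from the others by a gap above Dixon's 95% critical value, as a share of the range of the group on the log2 scale. Chance alone flags about 5% of such sets. Olfr31 in wild-type mouse 5 of MK37 was 1770, against 1101 to 1313 in the other 5 mice (gap 0.629 of the range), and the same mouse had the highest Olfr720 count of its group, 4207. Olfr720 in 129 wild-type mouse 2 was 555, against 617 to 642 in the others (gap 0.723 of the range). The ratio of Olfr31 to Olfr720 in 129 wild-type mouse 5 was 0.378, against 0.420 to 0.445 in the others (gap 0.639 of the range).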

How the results depend on the processing

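Under other settings 252 recomputed values kept their direction and their side of the threshold, 11 turned sign and 3 passed the threshold that the reported value missed. Not all of these 252 belong to tests. They include 9 for the correlation of the genes, and 37 for Olfr720 and 32 for Olfr31 between the sexes. Their starting values were those over all 30 mice, which are descriptions. The correlation in the 24 mice outside ΔHxΔP was not recomputed with other scalings. The ΔHxΔP values, which have no test, kept their direction in 54 of 54. Olfr31 in wild-type mice of MK29 against MK37 passed with TMM scaling (0.34) and with the median of ratios (0.36). It moved further from the threshold with the positive controls alone (0.16, adjusted p = 0.273 by limma) and with all 30 lanes in 1 fit (adjusted p = 0.350 by limma). Leaving out 1 mouse gave 0.21 to 0.34, past the threshold without mouse 5 of MK37. The sign of Olfr720 in ΔOlfr7Δ against 129 wild-type mice turned with TMM scaling (-0.0162), with the median of ratios (-0.0332) and when 129 mouse 2 or ΔOlfr7Δ mouse 3 or 5 was left out (-0.0627 to 0.12 over all 12). The sign of Olfr31 in males against females turned with the positive controls alone (0.0382), in the 24 mice outside ΔHxΔP (0.0492, a setting chosen after seeing the data) and without ΔHxΔP mouse 4 or 5 or ΔOlfr7Δ mouse 3 (-0.0942 to 0.0492 over all 30). That of the ratio in ΔOlfr7Δ against 129 wild-type mice turned without ΔOlfr7Δ mouse 2 (-0.00372 to 0.124). None of these values that turned passed the test, and the cause was not tested. The differences between 129 and mixed wild type stayed between -2.43 and -2.29 for both genes when 1 mouse was left out. The 2 planned tests by count models were not run, because the table was not recorded as plain counts. No paired analysis was possible because the labels give no numbers shared between groups. With 6 mice in a group, differences inside the intervals given are not resolved.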

Other observations

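The OR genes whose deviations ran most against Olfr31 between mice, named after their values were seen, were Olfr873 (Pearson's r -0.82 over 30 mice), Olfr497 (-0.81) and Olfr1188 (-0.77). Without the ΔHxΔP mice the coefficients were -0.54, -0.51 and -0.47 over 24 mice. For Olfr720 the lowest were Olfr32 (-0.68), Olfr1320 (-0.62) and Olfr1491 (-0.61), and without the ΔHxΔP mice they were -0.68, -0.65 and -0.56. These are descriptions over mice that share cartridges and scaling, and none was tested.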
